A study of Mus musculus with 20 samples.

Results

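The regions described here are 317 H3K27me3 peaks of reprogramming fibroblasts at day 5 that were called with a control vector and were no longer called when JMJD3 was overexpressed, in Jmjd3+/+ and in Jmjd3-/- cells alike. They were taken from the 6428 peaks of the day 5 Jmjd3+/+ library with the FLAG control vector. A peak was a member if it overlapped, by at least 1 bp, a peak of the day 5 Jmjd3-/- FLAG library and a peak of at least 1 library of untreated fibroblasts, and overlapped no peak of either day 5 JMJD3 library. Of the 6428 peaks, 3250 met the conditions of presence and are called shared peaks below. Among these, 317 were lost in both genotypes (9.75%, 95% Wilson interval 8.78 to 10.8), 409 were lost in Jmjd3+/+ cells only, 124 were lost in Jmjd3-/- cells only and 2400 were kept in both. The members were thus chosen by the day 5 and fibroblast peak calls themselves, and the values of those lists are given as description only.

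The cells were mouse embryonic fibroblasts (MEFs), connective tissue cells grown from embryos and used within a few passages. They were Jmjd3+/+ (WT, strain C57BL/6J-OG2, which carries an Oct4-GFP reporter) or Jmjd3-/- (KO, strain C57Bl6J), so genotype and strain cannot be told apart. H3K27me3 was measured by chromatin immunoprecipitation and sequencing in untreated MEFs of each genotype (day 0), and at day 5 and day 10 after infection with viruses for Oct4, Sox2, Klf4 and c-Myc (OSKM) together with either FLAG, the empty control, or JMJD3, in medium with vitamin C. At day 5, KLF4 was also measured in OSKM WT cells with FLAG or with JMJD3, and FLAG-tagged JMJD3 was measured with an anti-FLAG antibody in OSKM WT cells and in WT cells given less KLF4 (OSlowKM). In all, peak lists of 14 libraries among 20 samples were used, with 1 library in each group, so that no difference between groups had a replicate check and no p-value is given. Reprogramming cultures are mixed, so a peak that is not called can reflect fewer cells with the mark or less of the mark per cell.

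H3K27me3, trimethylation of lysine 27 of histone H3, is deposited by the Polycomb repressive complex PRC2 and marks genes that are kept silent, among them many regulators of development. JMJD3, encoded by Kdm6b, is a demethylase that removes this mark. KLF4 is a zinc finger transcription factor that binds CACCC and GC-rich elements and, as one of the reprogramming factors, takes part in the turn from mesenchymal to epithelial gene expression early in reprogramming.

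Sequences are shown first for members in which a KLF4 peak lay under the lost H3K27me3 peak. A KLF4 peak of both KLF4 lists overlapped 15 members, and for 7 of these the 200 bp around the middle of the KLF4 peak lay outside annotated untranslated regions. The 6 with the highest H3K27me3 score are printed 5′ to 3′ on the plus strand (GRCm38, the same build as mm10), named by the nearest gene, with capitals for a match to the KLF element GGGNGTGG on either strand.
Gm6990, chr19:56775973-56776172: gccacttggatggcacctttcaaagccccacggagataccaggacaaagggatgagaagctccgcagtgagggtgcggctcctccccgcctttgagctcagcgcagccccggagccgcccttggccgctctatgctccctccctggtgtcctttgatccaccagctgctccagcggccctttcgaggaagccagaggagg
Mctp1, chr13:76384162-76384361: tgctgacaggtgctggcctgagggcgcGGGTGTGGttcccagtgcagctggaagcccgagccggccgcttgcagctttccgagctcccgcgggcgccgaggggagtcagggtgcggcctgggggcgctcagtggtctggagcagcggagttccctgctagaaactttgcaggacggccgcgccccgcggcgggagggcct
Epop, chr11:97628758-97628957: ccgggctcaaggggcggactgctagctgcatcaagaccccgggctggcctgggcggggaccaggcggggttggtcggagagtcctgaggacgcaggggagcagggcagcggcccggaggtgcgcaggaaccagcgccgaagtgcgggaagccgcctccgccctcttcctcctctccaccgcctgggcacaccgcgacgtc
Unc5a, chr13:54956089-54956288: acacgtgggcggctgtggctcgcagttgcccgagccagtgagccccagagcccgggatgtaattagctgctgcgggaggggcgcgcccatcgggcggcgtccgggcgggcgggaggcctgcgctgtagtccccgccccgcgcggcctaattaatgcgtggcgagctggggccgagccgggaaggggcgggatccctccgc
Ism2, chr12:87299669-87299868: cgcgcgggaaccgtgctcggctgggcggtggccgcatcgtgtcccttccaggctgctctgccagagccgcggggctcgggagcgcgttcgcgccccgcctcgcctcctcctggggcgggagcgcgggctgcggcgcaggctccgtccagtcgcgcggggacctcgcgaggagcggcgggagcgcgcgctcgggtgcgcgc
Unc13a, chr8:71654696-71654895: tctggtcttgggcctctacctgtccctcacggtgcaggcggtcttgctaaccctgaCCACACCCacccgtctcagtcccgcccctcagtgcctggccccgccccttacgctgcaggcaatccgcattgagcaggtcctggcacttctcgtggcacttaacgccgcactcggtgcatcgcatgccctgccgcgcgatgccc
Mctp1, encoding a calcium-binding membrane protein, had the middle of its member at -504 bp from the start site. Its window held a KLF match on the plus strand at bases 28 to 35 and a JMJD3 position of OSKM cells at base 117. Unc13a, a gene of synaptic vesicle priming, held a match on the minus strand at bases 57 to 64. The printed windows at Epop, at the netrin receptor gene Unc5a, at Ism2 and near the pseudogene Gm6990 held no match to these letters, although the members at Epop and Gm6990 held a match elsewhere in their 1000 bp. The Gm6990 window held a JMJD3 position at base 76. The windows ranged from 10 CpGs and 64% GC near Gm6990, with an observed over expected CpG ratio of 0.493, to 36 CpGs and 80% GC at Ism2, with a ratio of 1.13. Over all members, 7 of the 27 windows of 200 bp centred on KLF4 peaks of JMJD3 cells held a KLF match (25.9%), beside 22.9% of such windows in kept peaks and 33.6% at all KLF4 peaks of that list.

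The members were mostly weak peaks. Their score from the authors' peak caller, whose scale was not stated, had a median of 11.3 in the day 5 WT FLAG list, from 6.58 to 52.6. The median was 31.9 for kept peaks, 16.4 for peaks lost in WT cells only and 13.2 for all 6428. By quartile of the score, 78, 116, 104 and 19 members fell in the lowest to the highest quartile. They made up 33.2% of shared peaks in the lowest quartile and 1.28% in the highest. The condition on MEFs was met in the WT list only by 163 members, in the KO list only by 24 and in both by 130. At the edge of the rule, the member at Fgf9 lay 2 bp from the nearest day 5 JMJD3 peak, and those near Gm4675 and Gm11762 lay 14 bp and 18 bp away. In all, 34 members (10.7%) had a day 5 JMJD3 peak within 1 kb and 63 (19.9%) within 5 kb. Among members described below, those at Pax3 (77 bp), Chrnb2 (90 bp), Hand2 (178 bp), Nkx1-1 (340 and 798 bp) and Nkx3-2 (648 bp) lay beside one, so that a called peak remained next to the lost one. Just outside it, FLAG peaks at the transcription factor genes Gata2, Tfap2a and Msx2 overlapped a JMJD3 peak by 8, 23 and 23 bp. The members formed 310 clusters when joined within 5 kb, so that few of them were neighbours.

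Several facts of the libraries bear on all comparisons. The H3K27me3 lists held from 3045 (day 10 WT JMJD3) to 6954 peaks (WT MEFs), every peak 1000 bp wide, and the numbers of reads behind them were not used here. In KO cells at day 5, the JMJD3 list (6539 peaks) was longer than the FLAG list (5643), whereas in WT cells it was shorter (5064 against 6428). No member lay on chromosome X or Y, where 15 shared peaks were on X. Peak positions carry no readout of Jmjd3 expression, so the genotype rests on the labels. For the fibroblast label, marker genes were looked up: a MEF peak of H3K27me3 lay within 5 kb of 1 of 12 fibroblast genes in WT (Thy1) and 0 of 12 in KO cells, and of 7 and 6 of 16 genes of other cell types, among them Cdh1, Epcam, Krt8, Kdr, Sox1 and Myod1. The share of all genes with a MEF peak was not counted, so these counts do not test the label.

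Day 10 lists were not used to choose the members and show whether the lost regions were marked again. In the FLAG cells, where the same regions had carried a peak at day 5, many no longer did. A day 10 peak overlapped 118 members in WT FLAG cells (37.2%, 32.1 to 42.7) and 141 in KO FLAG cells (44.5%, 39.1 to 50.0), beside 52.1% and 55% of all 6428 day 5 peaks. With JMJD3, a day 10 peak overlapped 35 members in WT cells (11.0%, 8.05 to 15.0) and 93 in KO cells (29.3%, 24.6 to 34.6), beside 35% and 50.4% of all day 5 peaks. Members were thus called less often than day 5 peaks in general in each of the 4 day 10 lists. Kept peaks were called in 82.9%, 85.6%, 64.6% and 83.8% of cases in the WT FLAG, KO FLAG, WT JMJD3 and KO JMJD3 lists.

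**Figure D1:**
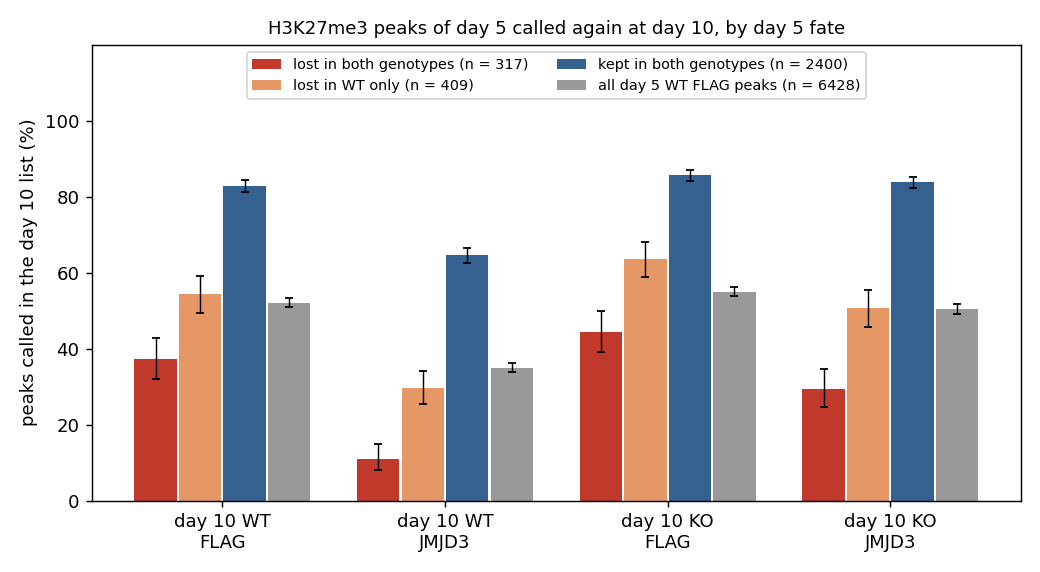
Share of day 5 H3K27me3 peaks (%, y axis) that overlap a peak of each day 10 list (x axis), for members, peaks lost in WT cells only, kept peaks and all day 5 WT FLAG peaks; error bars are 95% Wilson intervals. Members are lowest in every list, at 37.2% and 11.0% in WT cells with FLAG and JMJD3 and at 44.5% and 29.3% in KO cells.

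The difference between members and kept peaks was -45.7 percentage points in WT FLAG cells (95% Newcombe interval -51.0 to -40.0), -41.1 in KO FLAG cells (-46.6 to -35.4), -53.5 in WT JMJD3 cells (-57.1 to -49.2) and -54.5 in KO JMJD3 cells (-59.4 to -49.0). Members also had a low score at day 5. Within quartiles of the day 5 score, the differences were smaller, at -22.8 (-30.2 to -16.4), -27.8 (-35.0 to -20.5), -37.6 (-42.2 to -30.6) and -37.3 (-44.3 to -30.3) in the same order, and each interval still lay below 0. Quartiles of this score do not remove all differences in strength. Within them, members were still called less often in KO MEFs (-17.0, -24.5 to -9.89) and in both MEF lists (-21.7, -28.7 to -14.1). Kept peaks were also chosen for being called in both day 5 JMJD3 lists, so this comparison is not free of the choice. Against peaks lost in WT cells only, the day 10 differences were -17.1, -19.1, -18.5 and -21.3, and within quartiles that of the WT FLAG list had an interval that included 0 (-7.12, -15.5 to 0.226). Against the 124 peaks lost in KO cells only, whose median score was 13.0, they were -12.8, -14.4, -15.6 and -11.8, and within quartiles the intervals of the WT FLAG list (-11.1, -21.2 to 0.487) and the KO JMJD3 list (-6.65, -18.2 to 4.43) included 0. When every H3K27me3 list was limited to its 3045 highest scores, the length of the shortest list, 168 peaks met the rule, and 41.1%, 51.2%, 26.2% and 27.4% of them were called in the same order, so that the lower share of WT than of KO JMJD3 cells was not seen at equal list lengths, while the differences from kept peaks were -43.0, -35.8, -50.5 and -59.4. All intervals reflect the number of peaks counted and no biological spread, and nearby peaks can share a fate.

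In the lists as deposited, the WT JMJD3 list stood apart. The share of members called there stayed low in every quartile of the day 5 score, at 8.97%, 13.8%, 8.65% and 15.8%, while that of kept peaks went from 30.2% to 77.0%. These shares of members rest on 7, 16, 9 and 3 called peaks in the shortest list, and were not recomputed at equal list lengths. In WT FLAG cells the share of members went from 24.4% in the lowest to 73.7% in the highest quartile, which held 19 members. KO FLAG cells had 30.8%, 42.2%, 55.8% and 52.6%, and KO JMJD3 cells had 19.2%, 23.3%, 38.5% and 57.9%.

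**Figure D2:**
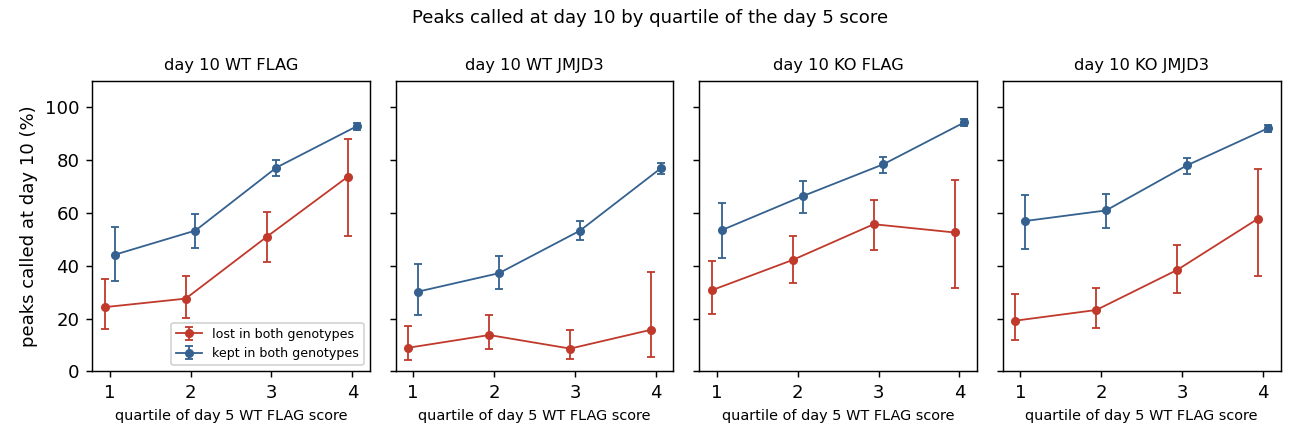
Share of members (red) and kept peaks (blue) called at day 10 (%, y axis) by quartile of the day 5 WT FLAG score (x axis, lowest to highest), with 1 panel per day 10 list and 95% Wilson intervals. Kept peaks exceed members in every quartile of every list, and in WT JMJD3 cells members stay between 8.65% and 15.8%.

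At day 10, members with a FLAG peak more often lacked a JMJD3 peak than other day 5 peaks did. Of the 118 members with a day 10 WT FLAG peak, 93 had no WT JMJD3 peak (78.8%, 70.6 to 85.2), beside 44.2% of all day 5 peaks with a WT FLAG peak and 29.0% of kept peaks. The difference from kept peaks was 49.8 points (41.3 to 56.5), and 34.4 (23.4 to 42.2) within score quartiles. In KO cells, 86 of 141 had no JMJD3 peak (61.0%, 52.8 to 68.7), beside 27.1% of all day 5 peaks with a KO FLAG peak and 11.8% of kept peaks. Here the difference from kept peaks was 49.2 (40.8 to 56.9), and 33.6 (24.2 to 43.5) within quartiles. The WT JMJD3 list is the shortest. With every list at 3045 peaks, the shares were 44 of 69 in WT (63.8%, 52.0 to 74.1) and 55 of 86 in KO cells (64.0%, 53.4 to 73.3), beside 30.1% and 20.7% of all day 5 peaks and 19.0% and 9.66% of kept peaks, so that the higher share of WT than of KO cells was not seen at equal lengths. This comparison of FLAG with JMJD3 lists at day 10, with its values within quartiles and at equal lengths, was added after the data were seen. In the lists as deposited, peaks lost in WT cells only lay between, at 60.4% in WT and 39.6% in KO cells, and the members exceeded them by 18.5 points (8.15 to 27.6) and 21.4 points (11.2 to 31.0), or 14.7 (2.66 to 25.0) and 13.7 (3.01 to 25.0) within quartiles. Peaks lost in KO cells only were closer to the members, with a share of 71.0% (58.7 to 80.8) for the WT lists and of 53.4% (42.1 to 64.4) for the KO lists, and the differences of 7.85 (-4.95 to 21.7) and 7.57 points (-6.16 to 21.2) had intervals that included 0. In the other direction, 10 of the 199 members without a day 10 WT FLAG peak had a WT JMJD3 peak (5.03%), beside 12.4% of all such day 5 peaks. In KO cells this was 38 of 176 (21.6%, 16.2 to 28.2), an interval that includes the 22.9% of all day 5 peaks. Day 5 and day 10 libraries of the same genotype and vector came from the same labelled strain, and whether they came from the same cultures was not given.

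By their pattern over the 4 day 10 lists, the members split into several groups. The largest, 112 members (35.3%, 30.3 to 40.7), was in none of them, beside 27.7% (26.6 to 28.8) of all day 5 peaks and 3.04% of kept peaks. KO FLAG alone held 43 (13.6%, beside 6.81% of all day 5 peaks and 3.17% of kept peaks), and both FLAG lists with neither JMJD3 list held 38 (12.0%, beside 5.46% and 4.21%). Both FLAG lists with KO JMJD3 held 27 (8.52%, 5.92 to 12.1), an interval that includes the 9.93% of all day 5 peaks and lies below the 15.4% of kept peaks. WT FLAG alone and KO JMJD3 alone held 21 each (6.62%, 4.37 to 9.91), beside 4.70% and 4.14% of all day 5 peaks. All 4 lists held 10 members (3.15%), beside 24.6% of all day 5 peaks and 53.7% of kept peaks.

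Highly scored members showed each of these outcomes. Nhlh1, a basic helix-loop-helix factor of developing neurons, had a member on chr1:172053660-172054659, in an exon and 2914 bp from the start site. Its scores were 53.3 in WT MEFs, 16.8 in KO MEFs, 38.4 in day 5 WT FLAG, 41.2 in day 5 KO FLAG, 8.27 in day 10 WT FLAG and 13.5 in day 10 KO FLAG cells, with no peak in any JMJD3 list. Rbm20, a splicing factor of heart muscle, had scores of 33.5 and 32.2 in the day 5 FLAG lists and 23.2 and 12.5 in the day 10 FLAG lists, WT before KO, and likewise no peak with JMJD3. Both genes thus had a called peak through day 10 in FLAG cells of both genotypes and none with JMJD3 at either time. The neurotrophin gene Ntf5 and the endocytic adaptor gene Epn3 had the same pattern.

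Bmi1, which encodes a subunit of the Polycomb complex PRC1, was in all 4 day 10 lists. The member on chr2:18678218-18679217, 1155 bp from the start site, scored 44.7 in day 5 WT FLAG and 61.8 in day 5 KO FLAG cells, 13.3 and 41.6 in day 10 FLAG cells, and 7.62 and 6.66 in day 10 JMJD3 cells, WT before KO. Within the day 10 JMJD3 lists these scores stood at percentile 21.3 in WT and 0.861 in KO cells, so the peaks were among the weaker ones there. The homeobox gene Nkx1-1 had a pair of members: the one over the start site, at chr5:33433611-33434610, was again called in all 4 lists, with 19.5 in WT and 50.0 in KO JMJD3 cells, and the other, 2616 bp from the start site, was called in WT FLAG cells only (9.68). Chrnb2, a subunit of the nicotinic acetylcholine receptor, was called in all 4 with scores from 8.74 to 17.3.

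Other members with a high day 5 score had left all lists by day 10. Nipal2, a gene of a family of magnesium transporters, scored 32.3 in day 5 WT FLAG and 15.9 in day 5 KO FLAG cells, with its member over an exon at the start site (chr15:34678592-34679591). Pitpnm3, of the phosphatidylinositol transfer proteins, scored 31.0 and 13.8, and the ubiquitin ligase gene March9 scored 25.7 and 7.54. None of the 3 had a peak in any day 10 list.

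The member with the highest score, in an intron of the potassium channel subunit gene Kcne3 (chr7:100179356-100180355), scored 52.6 in day 5 WT FLAG cells, 10.6 in day 5 KO FLAG cells and 10.1 in WT MEFs. At day 10 it was called with FLAG in WT cells (9.81) and with JMJD3 in WT (9.11) and KO cells (13.0). Fgf9, a growth factor gene with the member over its start site, scored 48.7 and 39.0 in the day 5 FLAG lists and was called at day 10 in KO cells only, with FLAG (17.6) and with JMJD3 (13.2). Pax3, a transcription factor of neural crest and muscle precursors, had its member 19626 bp from the start site in CpG-rich sequence and was called at day 10 in all lists but WT JMJD3, as were Grik4, a kainate receptor subunit, and Zfp428, a zinc finger gene. Scores of different lists share no stated scale, so their sizes are compared within a list only.

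**Figure D3:**
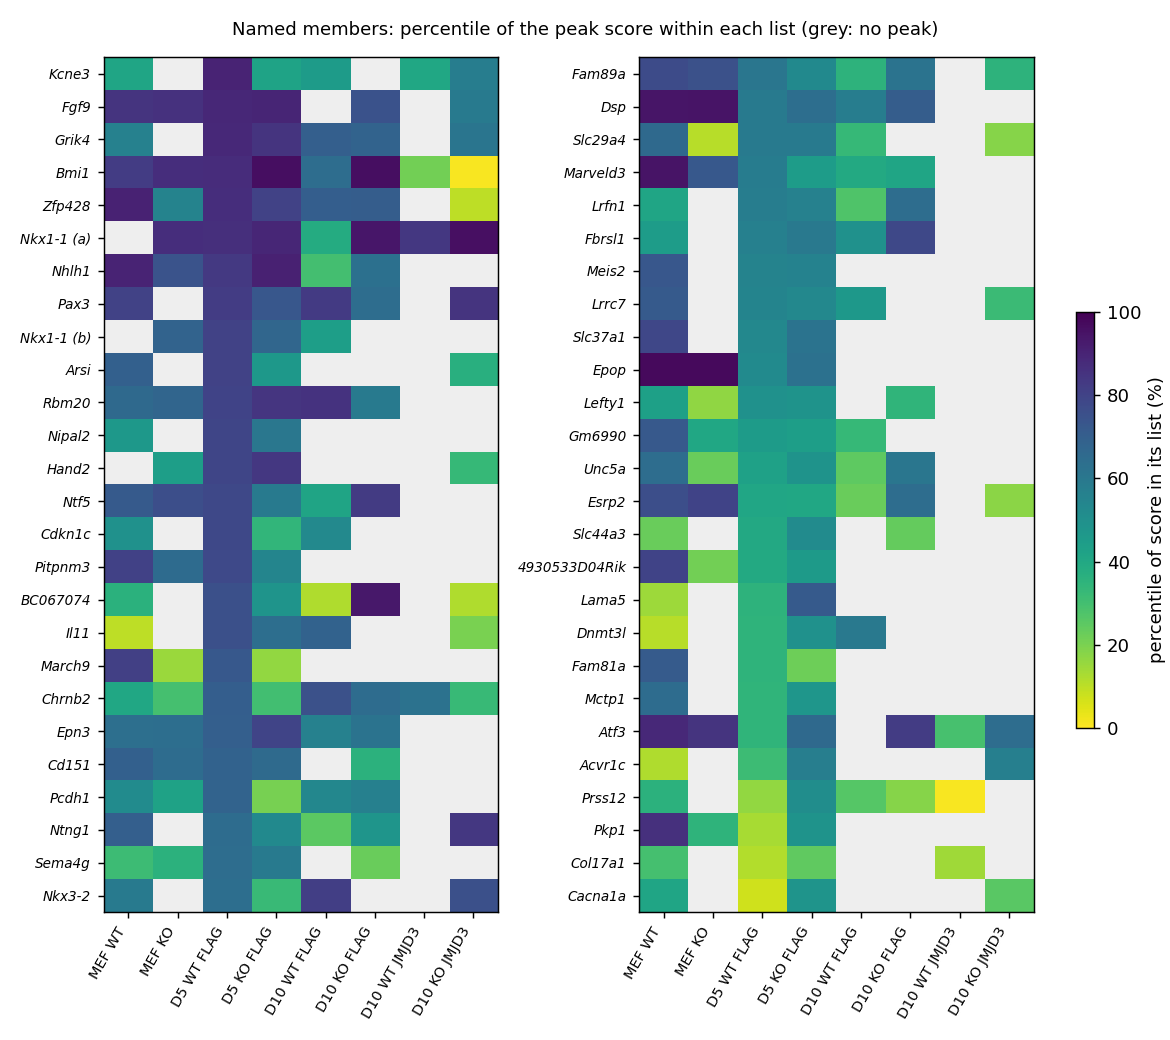
Percentile of the peak score within its own H3K27me3 list (colour, %) for the named members (rows, by day 5 WT FLAG score) in 8 lists (columns); grey marks no peak, and both day 5 JMJD3 lists are left out since members have none there. The columns of the day 10 WT JMJD3 and KO JMJD3 lists are mostly grey, whereas Bmi1, Chrnb2 and the start site of Nkx1-1 are coloured throughout day 10.

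The position of members relative to genes differed from that of kept peaks, but less so within score quartiles. A transcription start site (TSS) lay within 5 kb of 225 members (71.0%, 65.8 to 75.7), beside 63.3% of all day 5 peaks and 77.8% of kept peaks. The difference from kept peaks was -6.77 points (-12.2 to -1.75), and within score quartiles it turned to 3.81 (-3.49 to 8.98). The median distance to a TSS was 1008 bp, from 0 bp to 204445 bp near Meis2, a homeobox gene, and 330.5 bp for kept peaks. By the middle of the peak, 22.1% of members lay in an exon, 41.6% in an intron and 36.3% between genes, beside 23.0%, 43.1% and 33.9% of all day 5 peaks and 33.6%, 43.6% and 22.8% of kept peaks. The gap from kept peaks for intergenic sequence was 13.5 points (8.15 to 19.2), and 4.34 (-1.62 to 12.0) within quartiles.

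CpG-rich sequence, where PRC2 is commonly found, was less frequent among members than among kept peaks. Over the 1000 bp of the peak, 74 members had at least 50% GC and an observed over expected CpG ratio of at least 0.6 (23.3%, 19.0 to 28.3), beside 28.2% of all day 5 peaks and 46.6% of kept peaks. The difference from kept peaks was -23.2 points (-28.0 to -17.9) and -3.78 (-10.0 to 3.21) within score quartiles, where the interval included 0. Among the 166 peaks that met the rule with the better-scoring 50% of each list, 38.0% were CpG-rich. The median CpG ratio was 0.417 for members and 0.590 for kept peaks. The members at Pax3 (0.942), Nkx1-1 (0.898) and the desmosome gene Dsp (0.817) were among the richest, while those at Kcne3 (0.231), Lefty1 (0.219) and Dnmt3l (0.261) had few CpGs.

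Short sequence elements were counted in the same 1000 bp on both strands. The KLF element GGGNGTGG was present in 40.4% of members, 42.7% of kept peaks and 38.2% of all day 5 peaks. The SOX element AACAANG was present in 43.2%, 28.7% and 35.1%, a difference from kept peaks of 14.5 points (8.86 to 20.3) that was 6.82 (0.182 to 14.5) within score quartiles. The OCT element ATGCNAAT was found in 8.20% of members and the AP-1 element TGANTCA in 16.1%, against 7.31% and 16.1% of all day 5 peaks. A match describes the letters only.

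KLF4 peaks and JMJD3 positions were more often found close to members than close to kept peaks, with most of them beside the lost peak and not under it. A KLF4 peak of the FLAG cells overlapped 15 members (4.73%, beside 2.4% of all day 5 peaks), one of the JMJD3 cells overlapped 27 (8.52%, beside 4.51%), and one of either list overlapped 27 (beside 4.84%). A JMJD3 position of OSKM cells lay in 10 members (3.15%, 1.72 to 5.71, beside 0.669% of all day 5 peaks) and in 0.542% of kept peaks, a difference of 2.61 points (1.13 to 5.18). With the better-scoring 50% of each H3K27me3 list, the shares were 14.5% for a KLF4 peak and 1.81% for a JMJD3 position, and both remained above kept peaks, by 8.51 points (3.78 to 14.8) and 1.46 points (0.185 to 4.84). One of OSlowKM cells lay in 1 member (0.315%, beside 0.124%). Peaks lost in WT cells only overlapped a KLF4 peak of JMJD3 cells in 12.2% of cases and a JMJD3 position of OSKM cells in 1.22%.

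Within 5 kb, a KLF4 peak of either list was found at 113 members (35.6%, 30.6 to 41.1), beside 18.5% of all day 5 peaks and 18.1% of kept peaks. This difference of 17.5 points (12.2 to 23.1) was 17.3 (11.3 to 24.7) within score quartiles. A JMJD3 position of OSKM cells lay within 5 kb of 53 members (16.7%, 13.0 to 21.2), beside 7.59% of all day 5 peaks and 5.50% of kept peaks, a difference of 11.2 (7.39 to 15.8) and of 9.04 (5.47 to 15.3) within quartiles. Unlike TSS distance and CpG content, the nearness of KLF4 and JMJD3 sites thus differed from kept peaks by much the same amount with and without regard to score. Against peaks lost in WT cells only, members exceeded them by 6.80 points for KLF4 (-0.0322 to 13.6), an interval that included 0, and 7.58 (0.280 to 15.6) within quartiles, and by 6.94 points for JMJD3 (2.00 to 12.1), which was 4.88 (-0.166 to 11.4) within quartiles. Against peaks lost in KO cells only, the differences were 10.6 for KLF4 (0.924 to 19.3), or 9.59 (-2.51 to 19.1) within quartiles, and 5.43 for JMJD3 (-2.29 to 11.8). Within 50 kb, 77.6% of members and 57.5% of kept peaks had a KLF4 peak, and 59.3% and 37.2% had a JMJD3 position of OSKM cells. The KLF4 and FLAG-JMJD3 lists come from WT cells only.

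**Figure D4:**
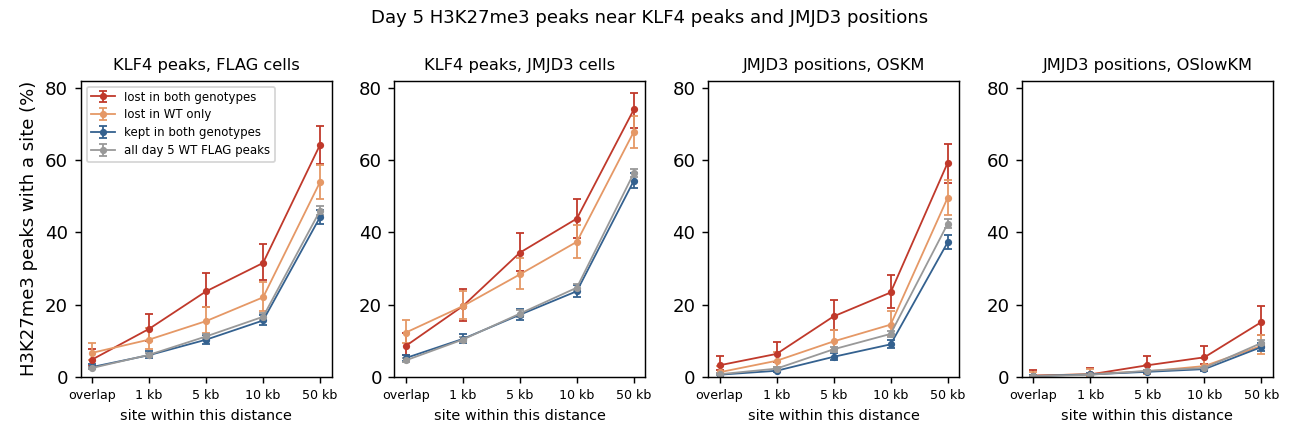
Share of day 5 H3K27me3 peaks (%, y axis) with a KLF4 peak or JMJD3 position within the distance on the x axis (overlap to 50 kb), in 1 panel per list, for members, peaks lost in WT cells only, kept peaks and all day 5 WT FLAG peaks, with 95% Wilson intervals. At 5 kb members stand above kept peaks for JMJD3 positions of OSKM cells (16.7% against 5.50%), and all groups are low for OSlowKM cells, whose list is the shortest.

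KLF4 and JMJD3 tended to be near the same peaks, among members and among day 5 peaks in general. Of the 53 members with a JMJD3 position of OSKM cells within 5 kb, 37 also had a KLF4 peak of JMJD3 cells within 5 kb (69.8%, 56.5 to 80.5), beside 53.8% (45.3 to 62.1) of the 132 such kept peaks. These intervals overlap. Of the 488 such peaks among all day 5 peaks, 245 had one. Whatever the JMJD3 positions, a KLF4 peak of JMJD3 cells lay within 5 kb of 34.4% of members and 17.2% of kept peaks. Only 8 of the 53 members had a JMJD3 position of OSlowKM cells within 5 kb (15.1%, 7.85 to 27.1), beside 20.5% of the 132 kept peaks. The OSlowKM list held 2284 positions and the OSKM list 14067, so the shares with OSlowKM positions are low throughout.

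The 10 members with a JMJD3 position of OSKM cells inside lay at genes of differing roles. Dsp encodes desmoplakin, which ties desmosomes to the cytoskeleton of epithelial cells. Atf3, a stress-induced transcription factor, scored 49.4 in WT MEFs and 9.64 in day 5 WT FLAG cells, had a KLF4 peak within 5 kb in both lists and was called at day 10 in all lists but WT FLAG. Acvr1c, an activin receptor, held a KLF4 peak and a JMJD3 position together over its start site (chr2:58356968-58357967) and was called at day 10 only in KO JMJD3 cells (12.8). Mctp1 and Gm6990, printed above, held KLF4 peaks of both lists besides the JMJD3 position; Mctp1 had no day 10 peak and Gm6990 one, in WT FLAG cells (8.53). Prss12, a secreted protease of neurons, had a KLF4 peak of JMJD3 cells and scored lowest of the 10 at day 5 (7.51). The other 4 were Chrnb2, Meis2, the postsynaptic gene Lrrc7 and a long noncoding RNA gene, 4930533D04Rik, and none of them held a KLF4 peak.

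Among members with KLF4 peaks of both lists, Epop stood out by its level before reprogramming. It encodes a partner of PRC2 and elongin that is expressed in pluripotent cells. Its member (chr11:97627989-97628988) scored 94.9 in WT MEFs, which was the highest MEF score of any member, and 44.1 in KO MEFs. At day 5 it scored 14.0 in WT FLAG and 16.8 in KO FLAG cells, and no day 10 list called it. Fam81a, with a KLF4 peak and its member at the start site, was likewise in no day 10 list, whereas Lrfn1, a synaptic adhesion gene, Fbrsl1 and Unc5a were called in both day 10 FLAG lists and in neither JMJD3 list.

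Gene groups were compared by protein-coding genes with a shared peak within 5 kb of a TSS. A member lay within 5 kb of 202 of these 2154 genes (9.38%). The lists of genes were chosen with earlier results of these data known, and genes are not replicates. For 165 of the 202 genes (81.7%) no other day 5 JMJD3 peak of either genotype remained within 5 kb of a TSS, so that the gene was clear of called peaks. Of these 165 genes, 70 had a day 10 peak within 5 kb in WT FLAG (42.4%), 83 in KO FLAG (50.3%), 22 in WT JMJD3 (13.3%) and 49 in KO JMJD3 cells (29.7%). The shares of all 2154 genes were 83.1%, 85.8%, 62.4% and 80.4%, but these include genes with several peaks, whereas the 165 were picked for having no day 5 JMJD3 peak.

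**Figure D5:**
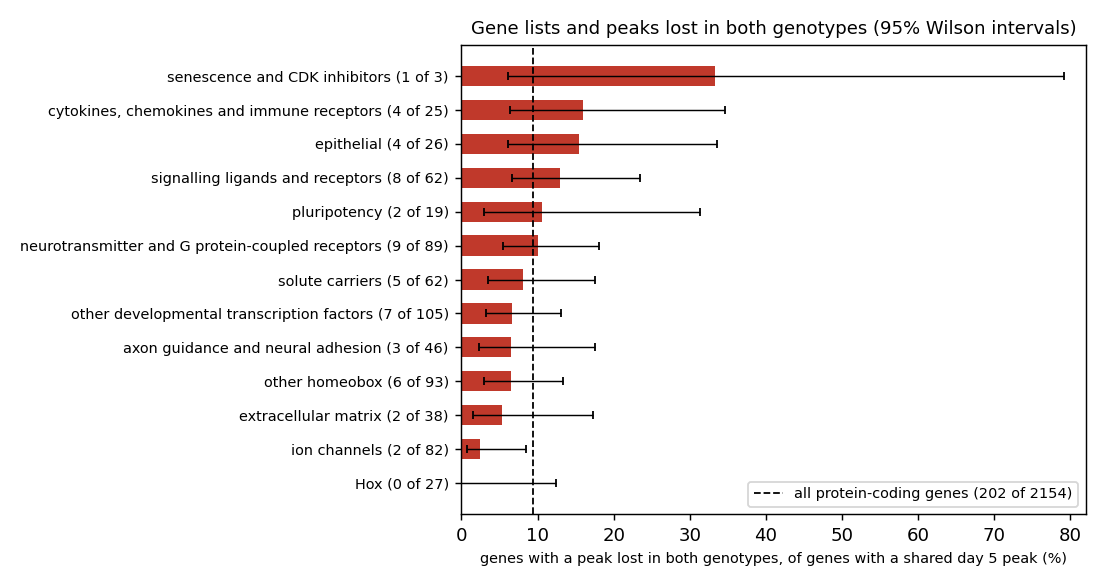
Share of genes with a member within 5 kb, among genes with a shared day 5 H3K27me3 peak (%, x axis), for each gene list (y axis, counts in brackets), with 95% Wilson intervals and a dashed line for all protein-coding genes (9.38%). Ion channels and Hox genes lie lowest, at 2 of 82 and 0 of 27, and most intervals include the dashed line.

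Genes of epithelial cells had a member at 4 of 26 genes with a shared peak (15.4%, 6.15 to 33.5), an interval that includes the 9.38% of all genes, and all 4 were clear of day 5 JMJD3 peaks, as were 81.7% of all genes with a member. At Dsp (chr13:38151181-38152180) the scores were 72.6 in WT MEFs, 34.6 in KO MEFs, 16.9 in day 5 WT FLAG and 17.3 in day 5 KO FLAG cells. Day 10 FLAG cells had 11.9 in WT and 15.7 in KO, and no JMJD3 list called it. Marveld3, a tight junction gene, followed the same course, with 74.1 and 16.2 in MEFs, 16.4 and 11.2 in day 5 FLAG and 9.16 and 9.43 in day 10 FLAG cells, WT before KO. Esrp2, a splicing regulator of epithelial cells, scored 27.3 and 19.6 in MEFs and 10.8 and 10.4 in day 5 FLAG cells, held a KLF4 peak of JMJD3 cells, and was called at day 10 in both FLAG lists and in KO JMJD3 cells (7.46). Pkp1, a desmosome component, scored 44.0 and 8.81 in MEFs and 7.30 and 12.2 in day 5 FLAG cells, held a KLF4 peak of both lists and was in no day 10 list. In rank within the list, the WT MEF peaks of Dsp, Marveld3 and Pkp1 were at percentiles 94.4, 94.7 and 86.3, and their day 5 WT FLAG peaks at 59.3, 58.0 and 13.2. In KO cells the percentiles of MEFs and day 5 FLAG cells were 94.7 and 63.8 at Dsp and 72.6 and 44.7 at Marveld3, whereas Pkp1 had the higher rank at day 5 (34.9 and 48.8).

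Homeobox genes were counted in the same way. None of 27 Hox genes with a shared peak had a member (upper limit 12.5%), and 6 of 93 other homeobox genes had one (6.45%, 2.99 to 13.4): Nkx1-1, Nkx3-2, Dlx4, Irx4, Six3 and Vax2. Both intervals include the 9.38% of all genes. At all 6 another day 5 JMJD3 peak remained within 5 kb in both genotypes, so the lost peak was 1 of several. Of all genes with a member, 81.7% were clear of such peaks, and the difference was not tested. Nkx3-2, a regulator of cartilage and stomach development, scored 19.3 and 9.22 in the day 5 FLAG lists with its member 1991 bp from the start site. Of other developmental transcription factors, 7 of 105 genes had a member (6.67%, 3.27 to 13.1), an interval that also includes the 9.38% of all genes. Nhlh1, Ebf1 and Nr2f1 were clear of JMJD3 peaks, while Hand2, Foxa2, Foxd4 and Tbx1 kept another peak. Hand2, a factor of heart and limb buds, scored 32.3 and 31.3 in the day 5 FLAG lists and was called at day 10 only in KO JMJD3 cells (8.76).

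Signalling genes of the Wnt, BMP, FGF, hedgehog and Notch pathways had a member at 8 of 62 (12.9%, 6.69 to 23.4), an interval that includes the 9.38% of all genes, and 7 of the 8, all but Fgf9, were clear of day 5 JMJD3 peaks, beside 81.7% of all genes with a member. They comprised the ligands Wnt16 and Jag2, the antagonists Chrd of BMP, Dkk2 of Wnt and Lefty1 of Nodal signalling, and the receptors Fzd4 and Acvr1c. Lefty1, which is expressed in pluripotent cells, scored 10.4 in WT MEFs, 7.42 in KO MEFs, 13.1 in day 5 WT FLAG and 12.2 in day 5 KO FLAG cells and was called at day 10 in KO FLAG cells only (8.73). It was 1 of 2 pluripotency genes with a member, of 19; the other, Dnmt3l, a cofactor of DNA methyltransferases, scored 9.72 and 12.4 in the day 5 FLAG lists and was called at day 10 in WT FLAG cells only (12.3).

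Channels, receptors and axon guidance genes were counted likewise, and differences between these lists were not tested. Ion channel genes had a member at 2 of 82 (2.44%, 0.671 to 8.46), an interval below the 9.38% of all genes: Kcne3 and the calcium channel gene Cacna1a, whose member scored 6.93. No other gene list had an interval without that share. The lists were not adjusted for their number or compared by score. Receptors for neurotransmitters and other G protein-coupled receptors had one at 9 of 89 (10.1%, 5.41 to 18.1), of which 5 were clear, beside 81.7% of all genes with a member. Axon guidance and neural adhesion genes had one at 3 of 46 (6.52%, 2.24 to 17.5), namely Ntng1, Sema4g and Ephb4, all of them clear. Ntng1, a membrane-bound netrin, was called at day 10 in both FLAG lists (7.92 in WT, 10.3 in KO) and in KO JMJD3 cells (26.6).

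The remaining lists had between 1 and 5 genes with a member. Of 3 senescence genes with a shared peak, Cdkn1c, which encodes the cell cycle inhibitor p57, had one 3706 bp from the start site, with day 5 scores of 31.2 in WT FLAG and 9.46 in KO FLAG cells, and another JMJD3 peak of KO cells remained nearby. The extracellular matrix list had 2 of 38 (5.26%), both basement membrane genes of epithelia, Lama5 and Col17a1, and the solute carriers had 5 of 62 (8.06%). Cytokines and immune receptors had 4 of 25 (16.0%, 6.40 to 34.7), an interval that includes the 9.38% of all genes, among them the cytokine gene Il11 and the tetraspanin gene Cd151, whose start site lay 4588 bp from the member, further than that of Cracr2b at 606 bp.

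Among the members themselves, the share called at day 10 varied with the day 5 score in the FLAG lists and the KO JMJD3 list. The score comes from a list that the rule used, so this is description only. Each score quartile was set against the other members in each of the 4 lists and for being in none, so the 20 differences share members. Of their intervals 12 excluded 0, with 4 of 4 for WT FLAG, 3 of 4 for KO JMJD3, 2 of 4 for KO FLAG and 0 of 4 for WT JMJD3. In the WT JMJD3 list, the shortest, only 7, 16, 9 and 3 members were called by quartile. The quartiles were not recomputed at equal list lengths. The 78 members of the lowest score quartile were in no day 10 list in 47.4% of cases and the others in 31.4% (difference 16.1 points, 3.72 to 28.3), and the 104 of the quartile above the median score were called in day 10 WT FLAG cells in 51.0% and the others in 30.5% (20.4, 8.97 to 31.5). Members with a KLF4 peak within 5 kb were called in day 10 KO FLAG cells in 52.2% of cases and the others in 40.2%, a difference of 12.0 points (0.603 to 23.1). Those with a JMJD3 position of OSKM cells within 5 kb were called in day 10 WT JMJD3 cells in 18.9% and the others in 9.47% (difference 9.40, 0.141 to 22.2). For nearness to a TSS and for CpG-rich sequence, all intervals of these differences included 0. These were 2 of 10 differences computed for the sites near members and 0 of 10 for the TSS and CpG splits, without adjustment for their number. Further splits used lists of the rule and are description only. Members with a day 5 JMJD3 peak within 5 kb were called in day 10 KO JMJD3 cells in 41.3% and the others in 26.4% (14.9, 2.21 to 28.2). Those called in KO MEFs were called in day 10 KO FLAG cells in 50.6% and the others in 38.7% (12.0, 1.06 to 22.6). All other intervals of these further splits included 0.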

How the data were processed

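Peak lists of 14 libraries were used (10 for H3K27me3, 2 for KLF4, 2 for FLAG-tagged JMJD3); 6 of 20 samples, 4 inputs and 2 for H3K27ac, were not used here. Per the methods and the submitters' notes, the authors aligned reads to mm10 with Bowtie2 (2.2.0 in the notes) and called peaks for each library separately. DFilter was used for the histone mark, MACS2 for KLF4 and for JMJD3. Drosophila chromatin served as a spike-in; whether it entered peak calling was not stated. The deposited H3K27me3 lists give intervals and the caller's score for each, as the authors left it, on a scale not stated; it was ranked only within a list. KLF4 lists give intervals and JMJD3 lists single positions, without scores. A longer list can stem from deeper sequencing, and read numbers were not used here.

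The members and gene lists were chosen with earlier results of these data known. Peaks were matched by overlap of at least 1 bp (checked with bedtools 2.31.1). TSSs, exons and introns came from the GENCODE annotation of GRCm38 and sequence from GRCm38, read with pysam 0.24.0. Shares carry 95% Wilson intervals and differences Newcombe intervals; differences within quartiles of the score are the mean over the 4 quartiles. Python 3.11.15, numpy 2.4.6, pandas 2.3.3 and scipy 1.17.1 were used. On simulated lists all 519 simulated members among 6428 regions were recovered.

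A member was named by the gene of its nearest TSS, or, when described with a gene list, by the gene of that list within 5 kb, also where another TSS was nearer (Hand2, Slc37a1 and Cd151). Named were the 10 highest scores, members with a JMJD3 position of OSKM cells or with KLF4 peaks in both lists (up to 10 each), all members of the epithelial, pluripotency and senescence lists, the 2 highest of every other list, and the highest for 3 day 10 patterns (in both FLAG lists only, in all 4 lists, in none). The other genes given with a gene list, with Ism2 and Unc13a, were added after their values were seen. Alternatives covered the overlap rule, the score threshold, list length, sex chromosomes, TSS set and distance, and the KLF4 and JMJD3 distance.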

Additional observations from a re-analysis of the deposited data

How the results depend on the processing

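No paired analysis was possible because each group has 1 library and the labels give no replicate numbers; for the same reason no library could be left out. Of 63 alternative values, 38 stayed close to the value reported, 24 moved by more than its interval (a count by more than 1.5 times) and 1 changed sign. Differences between members and kept peaks kept their direction in all 46 comparisons under another overlap rule, threshold or distance, but 3 of their intervals came to include 0: a KLF4 overlap with peaks within 1 kb counted as overlapping (2.63, -0.168 to 6.34), and a TSS within 5 kb with the better-scoring 50% of each list (-7.86 to 4.60) and with equal lengths (-9.92 to 2.76). Within score quartiles, the differences were 3.81 points for TSSs within 5 kb (-6.77 without regard to score), -22.8, -27.8, -37.6 and -37.3 for the day 10 WT FLAG, KO FLAG, WT JMJD3 and KO JMJD3 lists, and -3.78 for CpG-rich sequence; for FLAG peaks of day 10 without a JMJD3 peak, added after the data were seen, they were 34.4 in WT and 33.6 in KO cells (44.8 and 54.3 at equal lengths). With the better-scoring 50% of each list, there were 166 members, of which 81.3% lay within 5 kb of a TSS, 23.5% were called in KO JMJD3 cells at day 10, 14.5% overlapped a KLF4 peak and 38.0% were CpG-rich. With all lists set to 3045 peaks, there were 168 members, with 79.8% near a TSS, 51.2% and 26.2% called in the day 10 KO FLAG and WT JMJD3 lists, 12.5% at a KLF4 peak and 37.5% CpG-rich. An overlap of 50% of the peak moved the WT JMJD3 share from 11.0% to 16.8%. A TSS lay within 1 kb of 49.8% of members and a protein-coding TSS within 5 kb of 60.9%. The wider 50% of KLF4 peaks overlapped 5.36% of members, and a KLF4 peak or JMJD3 position lay within 1 kb of 20.5% and 6.31%. The score threshold of each list limits what can be seen, since a peak just below it counts as lost.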

Other observations

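Besides Bmi1 and Epop, members lay within 5 kb of 3 genes of chromatin regulators that were picked after their values were seen: Cbx2, a PRC1 subunit that reads H3K27me3, Cdyl, a chromodomain corepressor, and Sfmbt1, a Polycomb-like protein with MBT domains. No list of such genes was counted, so nothing is said of how often they occur among members. Chd7, a chromatin remodeller, also had a member, 1970 bp from its start site (17.8 in day 5 WT FLAG cells), and was called at day 10 in KO FLAG cells only (12.4). At Cbx2 the member (chr11:119021789-119022788) scored 14.0 in WT MEFs, 17.8 in KO MEFs, 14.8 in day 5 WT FLAG and 12.2 in day 5 KO FLAG cells, and at day 10 it was called in WT FLAG (12.4), WT JMJD3 (13.5) and KO JMJD3 cells (15.9). The member over the start site of Sfmbt1 had the same day 10 pattern, with 10.1, 6.96 and 8.19. Cdyl, with day 5 scores of 6.67 in WT FLAG and 17.0 in KO FLAG cells, was in no day 10 list, like Epop.

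The rank of a member within its list was compared between MEFs and day 5. In WT cells, 189 of the 293 members with a MEF peak had a lower percentile of score in the day 5 FLAG list than in the MEF list (64.5%, 58.9 to 69.8), beside 59.4% (54.4 to 64.2) of peaks lost in WT cells only, 61.4% (52.2 to 69.8) of those lost in KO cells only and 52.9% (50.9 to 54.9) of 2339 kept peaks. The median percentile of these members was 51.4 in MEFs and 42.8 at day 5, and that of kept peaks 80.0 and 79.1. In KO cells, 81 of 154 members ranked lower (52.6%, 44.7 to 60.3), an interval that includes 50%, beside 42.3%, 56.7% and 37.8% (35.6 to 40.0) in the same order of fates. Both lists helped to choose the members, so these values describe them and test nothing.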
